A study of Mus musculus with 9 samples.

Results

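The autosomal genes of growing mouse oocytes were compared between XX females and XO females, which carry a single X chromosome. Members were the 26808 genes that the deposited coordinates place on chromosomes 1 to 19, out of 28051 genes in all, and 10576 of them passed the filter on low counts and were tested. Oocytes of a mostly C57BL/6 background were taken in the growth phase at 18 dpp (days post partum). Each sample pooled 30 oocytes, 10 of 50 to 55 μm and 20 of 55 to 60 μm in diameter, and there were 3 XX samples (XX1 to XX3) and 3 XO samples (XO1 to XO3). The XX females were sired by B6.Y TIR males, whereas the XO females came from a separate cross with males carrying the Paf mutation, which had been backcrossed from C3H/HeSnJ to C57BL/6. The XX and XO oocytes therefore differed in sire line as well as in the X chromosome number, and these cannot be told apart in these samples. A further 3 XY samples were part of the same fits and are given only beside results that they bear on. The labels did not say whether the pools of a genotype came from separate females, so that p-values measured the spread between pools.

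A growing oocyte transcribes and stores most of the RNA and protein that meiotic maturation and the early embryo will use. It accumulates ribosomes, mitochondria, zona pellucida proteins and a subcortical maternal complex, while meiosis is arrested in prophase. In exchange with its granulosa cells it sends growth factors such as GDF9 and receives KIT ligand, metabolites and inhibitors of meiotic resumption. X-linked genes lie outside the comparison described here.

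RNA was measured by Smart-seq3, which counts each molecule once by a unique molecular identifier (UMI) at its 5′ end. Depth ranged from 2285008 to 2632585 gene UMIs in the 6 XX and XO samples, in which 18334 to 19825 genes were detected. Levels are given as the authors' normalized CPM, UMI counts set against the gene total of the sample after its correction by a factor from the ERCC spike-ins, synthetic RNAs added to each sample. Of the defining oocyte markers, Zp2 had 4920 normalized CPM in XO1 and 14800 to 17100 in the other XX and XO samples. Nlrp5 had 2610 in XO1 and 3010 to 4840 in the others. Figla was at 0.518 in XO1 and 9.1 to 17.5 in the others. Zp3 was at 12.4 against 49 to 570, and Dppa3 at 537 against 2360 to 7620. XO1 was also the lowest for Zp1 and Kit, but not for Gdf9, Ooep and Ddx4. Each sample thus carried oocyte markers, several of them lowest in XO1.

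XO1 stood apart from the other XO libraries. XO1 lay opposite to XO2 and XO3 along the main axis of variation of the autosomal genes, which held 67% of the variance over all 9 samples, at -95.3 against 71.6 for XO2 and 90.8 for XO3, while the XX samples lay at -25.4, -29.2 and 23.7. The spike-ins followed the same order. The spike-in ERCC-00002 had 171, 204 and 448 UMIs in XX1 to XX3, 81 in XO1, 1612 in XO2 and 2377 in XO3, whereas ERCC-00004 had 1479, 1857 and 540, then 2188, 595 and 590. On the first component of the spike-in composition, XO1 lay at -1.56, XO2 at 1.12 and XO3 at 1.37, and the XX samples between -0.52 and 0.53. The mitochondrial share of gene UMIs was 13.1% in XO1, 3.12% in XO2, 2.65% in XO3 and between 3.01 and 5.55% in the XX samples. XY1 lay on the side of XO1, at -66.5 on the main axis and -1.1 on the spike-in component, with a mitochondrial share of 10.8%. XY2 and XY3 had -5.1 and 35.5 on the main axis, -0.04 and 0.66 on the component, and shares of 6.02 and 3.88%. Since the spike-ins were the same synthetic mix in every sample, their composition moved with the libraries. How far it entered the gene values was not tested beyond the fits with that component as a covariate, which are given below.

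Differences were therefore read under 4 settings, namely with spike-in factors or with factors from the genes themselves (TMM, trimmed mean of M values), each with all samples and without XO1. With the spike-in factors and all samples, 87 autosomal genes were higher in XX than in XO (0.823% of those tested) and 1810 were lower (17.1%) at an unadjusted p below 0.05 in edgeR. None passed the Benjamini-Hochberg adjustment in edgeR, with a smallest adjusted p of 0.203, whereas DESeq2 on the same factors kept 8 higher and 423 lower after adjustment. With gene-based factors, 361 were higher (3.41%) and 857 lower (8.1%). Without XO1, 246 were higher (2.21%) and 3651 lower (32.7%) with spike-in factors, of which 57 and 2478 passed adjustment, and 1341 were higher (12%) and 2515 lower (22.6%) with gene-based factors. The excess of lower genes went with a shift of all autosomal genes, whose median log2 fold change (XX minus XO) was -0.47 with spike-in factors and -0.13 with gene-based factors, and 0.00 with gene-based factors without XO1. The sign of the shift and the balance of the calls depended on the scaling and on the batch adjustment. With the gene totals alone 824 genes were higher and 417 lower in XX (median 0.09), and with the spike-in totals as library size 182 and 51 (median 0.41). Limma on the authors' batch-regressed log2 values gave 3730 and 816 (median 0.27). That fit took no account of the batch terms already removed, so that its p-values can be too small. Higher genes made up 4.59% of the calls with spike-in factors and 29.6% with gene-based factors.

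In all 4 settings, 63 autosomal genes were higher in XX (0.596% of the 10576 tested) and 790 were lower (7.47%). XO1 took a different place in each set. Among the 63 higher genes, XO1 was below all 3 XX samples in all 63, and in 62 (0.586% of all genes tested) the 3 XX and 3 XO samples did not overlap. Of all genes tested, 2.01% did not overlap in this direction, whether called or not. Relative to the XX mean, the median of the higher genes was -0.93 in XO1, -1.07 in XO2 and -1.08 in XO3 on the log2 scale, and -0.36, -0.57 and -0.63 in XY1 to XY3. Among the 790 lower genes, XO1 was above all 3 XX samples in 371, within their range in 256 and below all of them in 163. For the 9723 genes in neither set these counts were 4128, 2127 and 3468, so that the lower genes were near this background. The median of the lower genes relative to the XX mean was 0.28 in XO1, 1.93 in XO2 and 2.62 in XO3, and between 0.15 and 1.02 in the XY samples. The lower genes took 2.37 to 3.49% of UMIs in the XX samples, 2.56% in XO1, 7.96% in XO2 and 11.1% in XO3. With XO1 as the sole XO sample, the sign was kept in 412 of the 790 lower genes and in all 63 higher genes. The median over all autosomal genes was 0.12 in that fit. Since XO1 was part of the all-sample fits that chose both sets, this was no independent check. The share of signs kept over all genes was not counted. With the spike-in composition as a covariate, a setting chosen after seeing the data, all 63 higher genes and 780 of the lower genes were still called in the same direction with spike-in factors, where 4.82% of all genes were called higher and 32.3% lower. With gene-based factors it was 63 and 745, where 14% and 15.9% of all genes were called. The covariate changed the size of many differences. With spike-in factors the log2 fold change went from -3.81 to -1.48 in Zp1, -4.17 to -1.84 in Ubb and -3.35 to -0.87 in H1foo. It stayed near in others, at -1.48 and -1.46 in Atf4 and 1.82 and 1.89 in Ms4a1.

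**Figure D1:**
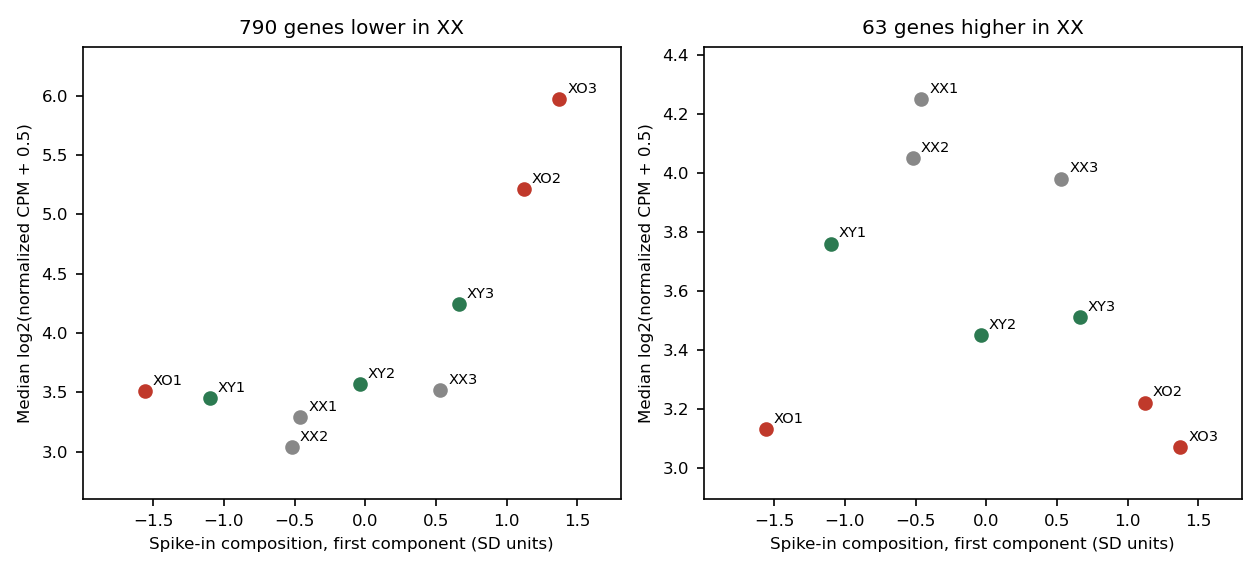
Median level, as log2(normalized CPM + 0.5), of the genes lower in XX (left) and higher in XX (right) in all 4 settings, by sample, against the first component of the spike-in composition in SD units. In the lower genes XO2 and XO3 stand above the other 7 samples and XO1 lies among the XX and XY samples, whereas in the higher genes all 3 XO samples lie below the XX and XY samples.

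Single libraries moved these numbers. The 63 higher genes became 33 without XX1, 121 without XX3 and 21 without XO2, and the 790 lower genes became 361 without XX1, 387 without XX2, 475 without XO2 and 221 without XO3. The 87 genes higher with spike-in factors became 50 without XX2 and 144 without XX3, and the 1810 lower genes became 680 without XX1, 901 without XX2, 1121 without XX3 and 889 without XO3.

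**Figure D2:**
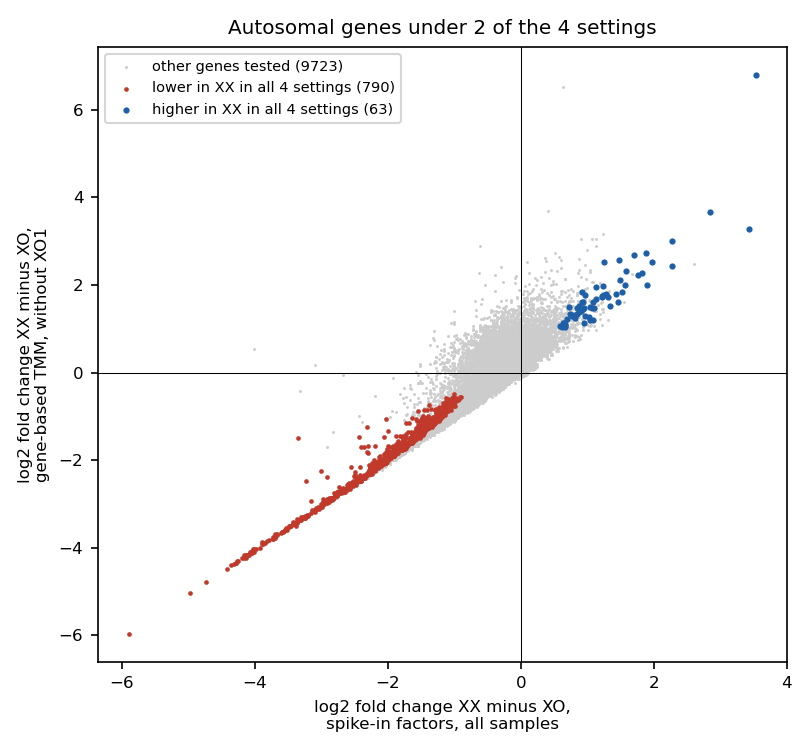
Log2 fold change (XX minus XO) of each autosomal gene tested with spike-in factors and all samples (x axis) and with gene-based TMM factors without XO1 (y axis). Blue points mark the 63 genes higher in XX and red points the 790 genes lower in XX in all 4 settings, and most grey points lie above the diagonal, as the shift of the median from -0.47 to 0.00 implies.

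The genes higher in XX in all 4 settings were few. Of the 63, 33 were protein-coding and 18 were lincRNA genes in the annotation, and 30 carried model names. The median log2 fold change was 1.07, with a range from 0.59 to 3.54. The 15 largest changes named below were chosen among genes with no overlap between the genotypes, so that their lack of overlap is no separate result. The first named was Ms4a1, whose product CD20 is best known from B cells, on chromosome 19 (11249675 to 11266241, GRCm38). It had 65.5, 41.0 and 67.6 normalized CPM in XX1 to XX3 and 16.1, 12.4 and 20.9 in XO1 to XO3. All XO samples were below all XX samples, the means were 58.0 ± 14.8 and 16.4 ± 4.25 (SD, n = 3 each), and the log2 fold change was 1.82 ± 0.35 (SE). It was 2.17 with gene-based factors and 2.28 with gene-based factors without XO1 (adjusted p = 0.004). The XY samples had 25.6, 20.8 and 36.2.

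Kitl encodes KIT ligand, which granulosa cells present to the KIT receptor of the oocyte. It had 17.1, 14 and 19.2 normalized CPM in XX and 8.28, 5.69 and 9.60 in XO, with a log2 fold change of 1.09 ± 0.31, and no overlap. The receptor gene Kit had 116, 89.3 and 122 in XX and 63.7, 168 and 207 in XO, a log2 difference of -0.42 that did not pass the test. Since Kitl is also a marker of granulosa cells, the other markers of these cells stand beside it. The summed level of 20 granulosa markers was 90, 68 and 94 in XX and 95, 112 and 146 in XO. Inha was at 0 in all 6 samples and Fshr at most 4.52. Amh, Foxl2 and Hsd17b1 were not among the markers analysed. Cyp19a1 had 14.2, 8.75 and 23.8 in XX and 3.62, 19.6 and 27.7 in XO, and was not called with spike-in factors (-0.12). Of the 6 markers tested, Kitl was higher and Serpine2 (-1.46 ± 0.54) lower in XX in all 4 settings. Whether granulosa cell RNA had a part in the difference of Kitl was not tested.

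Orai2 encodes a subunit of the store-operated calcium channel. It had 175, 135 and 92.9 normalized CPM in XX and 76.6, 75.5 and 56.5 in XO, and a log2 fold change of 0.95 ± 0.37. Itgb1 encodes integrin β1, an adhesion receptor of the oocyte surface, and had 46.7, 43.1 and 45.4 in XX and 25.9, 29.5 and 29.9 in XO (0.66 ± 0.23). Col4a4 encodes a collagen IV chain of basement membranes, and its log2 fold change was 1.26 ± 0.47. Each XX sample was above each XO sample in Itgb1, and also in Orai2 and Col4a4, where the rule of choice required it.

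The rest of the named higher genes shared no single function. Tex26, a gene named for its expression in testis, had 167, 151 and 107 normalized CPM in XX and 72.0, 69.3 and 50.8 in XO (log2 fold change 1.14 ± 0.31). The ubiquitin system was represented by Ubqln4, a shuttle factor to the proteasome (1.10 ± 0.35), and Spsb3, a substrate adaptor of a ubiquitin ligase (1.04 ± 0.35). Trim38, of the TRIM ubiquitin ligase family, had 0.92 ± 0.38. Phgdh, the entry enzyme of serine synthesis, had 38.5, 32.9 and 33.2 in XX and 23.3, 12.9 and 22 in XO (0.84 ± 0.35), and Fth1, the heavy chain of ferritin, had 0.81 ± 0.32. Genes best known from immune cells were Stat4, a transcription factor of cytokine signalling (0.91 ± 0.27), and Fcgr1, an Fc receptor (0.85 ± 0.31). Blood and immune markers summed to at most 2 normalized CPM in any of the 6 samples, and none was tested. Hbb-bs, Hba-a1 and Ptprc were not among the markers analysed. Psg16, of the pregnancy-specific glycoproteins (1.07 ± 0.32), Snhg4, a snoRNA host gene (1.03 ± 0.38), and Trappc5, a subunit of the TRAPP vesicle tether (0.88 ± 0.32), completed the 15.

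**Figure D3:**
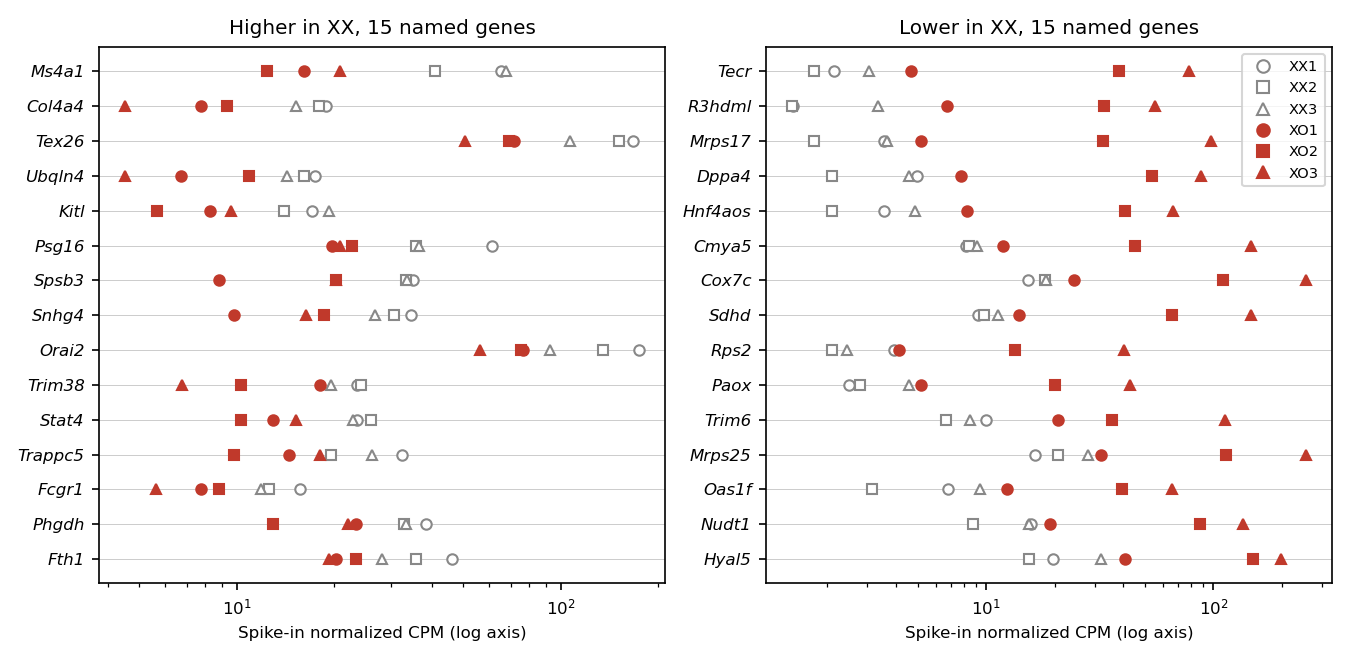
Spike-in normalized CPM (log axis) of the 15 named genes with the largest positive (left) and the largest negative (right) log2 fold change among genes that did not overlap between genotypes, with open grey symbols for XX1 to XX3 and filled red symbols for XO1 to XO3. On the left the XO samples lie together below the XX samples, and on the right XO1 lies just above the XX samples while XO2 and XO3 lie far above them.

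Genes lower in XX in all 4 settings, that is higher in XO, were more numerous, with a median log2 fold change of -1.98 and a range of the size from 0.90 to 5.89. The 15 named ones were those of largest change among the 199 genes with no overlap under both kinds of factor, a mean of at least 10 normalized CPM and a symbol other than a model name, of which 24 were eligible in the other direction. Tecr, the last reductase of very-long-chain fatty acid elongation, had 2.14, 1.75 and 3.05 normalized CPM in XX and 4.66, 38.3 and 77.9 in XO (log2 fold change -4.08 ± 1.00). Dppa4, a chromatin protein of pluripotent cells, had 4.99, 2.10 and 4.57 in XX and 7.77, 53.8 and 88.6 in XO (-3.67 ± 0.88). Hyal5, a hyaluronidase gene on chromosome 6, had 19.6, 15.4 and 32.0 in XX and 40.9, 150 and 198 in XO (-2.53 ± 0.60). In these genes XO1 was nearer to the XX samples than to XO2 and XO3.

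Cox7c, a subunit of cytochrome c oxidase, had 15.3, 18.2 and 18.3 normalized CPM in XX and 24.3, 110 and 256 in XO (-2.91 ± 0.71), and Sdhd, an anchor subunit of succinate dehydrogenase, 9.26, 9.80 and 11.3 in XX and 14, 65.7 and 147 in XO (-2.89 ± 0.70). Mrps17 (-3.88 ± 0.92) and Mrps25 (-2.62 ± 0.67) encode proteins of the small mitochondrial ribosomal subunit. The others were Rps2, of the small cytosolic ribosomal subunit (-2.76 ± 0.74), Paox, a polyamine oxidase (-2.76 ± 0.73), Nudt1, which clears oxidised nucleotides (-2.59 ± 0.64), Oas1f, of the oligoadenylate synthase family (-2.59 ± 0.66), Trim6 (-2.74 ± 0.58), and Cmya5, a muscle protein gene (-2.97 ± 0.73). R3hdml (-3.89 ± 0.83) and the antisense gene Hnf4aos (-3.43 ± 0.73) overlap on opposite strands of chromosome 2 (163492318 to 163502612 and 163493807 to 163541720), so that they may not be independent. Reads of Rps2 and Oas1f can be shared with close copies of these genes.

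The promoter sequences of 4 of the named genes, 2 higher and 2 lower in XX, are shown beside the counts of 5′ ends. Each is the 250 bases before the start site in RefSeq (GRCm38.p6), written on the strand of the gene, and capitals mark matches on either strand to the TATA box letters TATAAA, the core of the CCAAT box, the GC box letters GGGCGG and the E-box CANNTG, which FIGLA and other factors bind. The homeobox letters TAATTA, and with a different last base TAATTG, were also searched.
Tex26 (chr5:149439410-149439659, plus strand): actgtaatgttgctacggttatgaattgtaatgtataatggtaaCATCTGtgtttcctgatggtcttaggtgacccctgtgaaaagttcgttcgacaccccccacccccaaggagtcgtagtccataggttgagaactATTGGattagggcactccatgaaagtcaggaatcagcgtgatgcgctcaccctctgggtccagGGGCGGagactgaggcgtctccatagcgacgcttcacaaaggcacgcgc
Orai2 (chr5:136170657-136170906, minus strand): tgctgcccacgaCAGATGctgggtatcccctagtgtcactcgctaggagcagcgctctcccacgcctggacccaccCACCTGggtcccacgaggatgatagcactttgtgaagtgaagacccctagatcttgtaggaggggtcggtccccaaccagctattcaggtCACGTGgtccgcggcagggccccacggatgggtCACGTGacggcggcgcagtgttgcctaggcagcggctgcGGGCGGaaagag
Tecr (chr8:83594492-83594741, minus strand): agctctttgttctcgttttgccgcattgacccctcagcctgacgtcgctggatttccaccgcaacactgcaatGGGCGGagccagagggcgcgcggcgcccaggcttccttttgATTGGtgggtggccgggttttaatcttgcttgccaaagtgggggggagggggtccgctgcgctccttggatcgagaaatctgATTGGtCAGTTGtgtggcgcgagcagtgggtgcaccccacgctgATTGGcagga
Hyal5 (chr6:24857747-24857996, plus strand): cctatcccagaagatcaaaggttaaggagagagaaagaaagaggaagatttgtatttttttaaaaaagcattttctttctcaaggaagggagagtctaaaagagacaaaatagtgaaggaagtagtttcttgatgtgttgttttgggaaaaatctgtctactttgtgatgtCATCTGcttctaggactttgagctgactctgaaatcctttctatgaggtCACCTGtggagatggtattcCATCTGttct
None of the 4 holds TATAAA, which 12.4% of the 32851 promoters in the table hold. GGGCGG, held by 32.7% of all promoters, stands 49 bases before the start in Tex26, 12 in Orai2 and 177 in Tecr. CANNTG, held by 66.2% of all promoters, is in all 4, and 3 times in Hyal5, which holds none of the others. A promoter was matched for 73.5% of the genes lower in XX and 55.6% of those higher in XX, too few for a comparison of the sets. A match of letters is a description and not a binding site. Whether the counted 5′ ends lay at these start sites was not tested. The sequence printed for Tecr lies inside its annotated gene (83571698 to 83607971, minus strand). That for Orai2 overlaps the 5′ end of its annotated gene (136147459 to 136170713, minus strand), where its GGGCGG lies.

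By function, most of the 58 lists examined held more genes lower in XX than the background of 7.47%, and few held any gene higher in XX. The lower members of many lists fell into those with XO1 above all XX samples and those that were high in XO2 and XO3 alone. Genes lower in all 4 settings with XO1 above all XX samples made up 3.51% of all genes tested. Among genes in neither set, XO1 was above all XX samples in 4128 of 9723, beside which the counts below are to be read. Lists were chosen with earlier results of these data known and were described by counts.

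**Figure D4:**
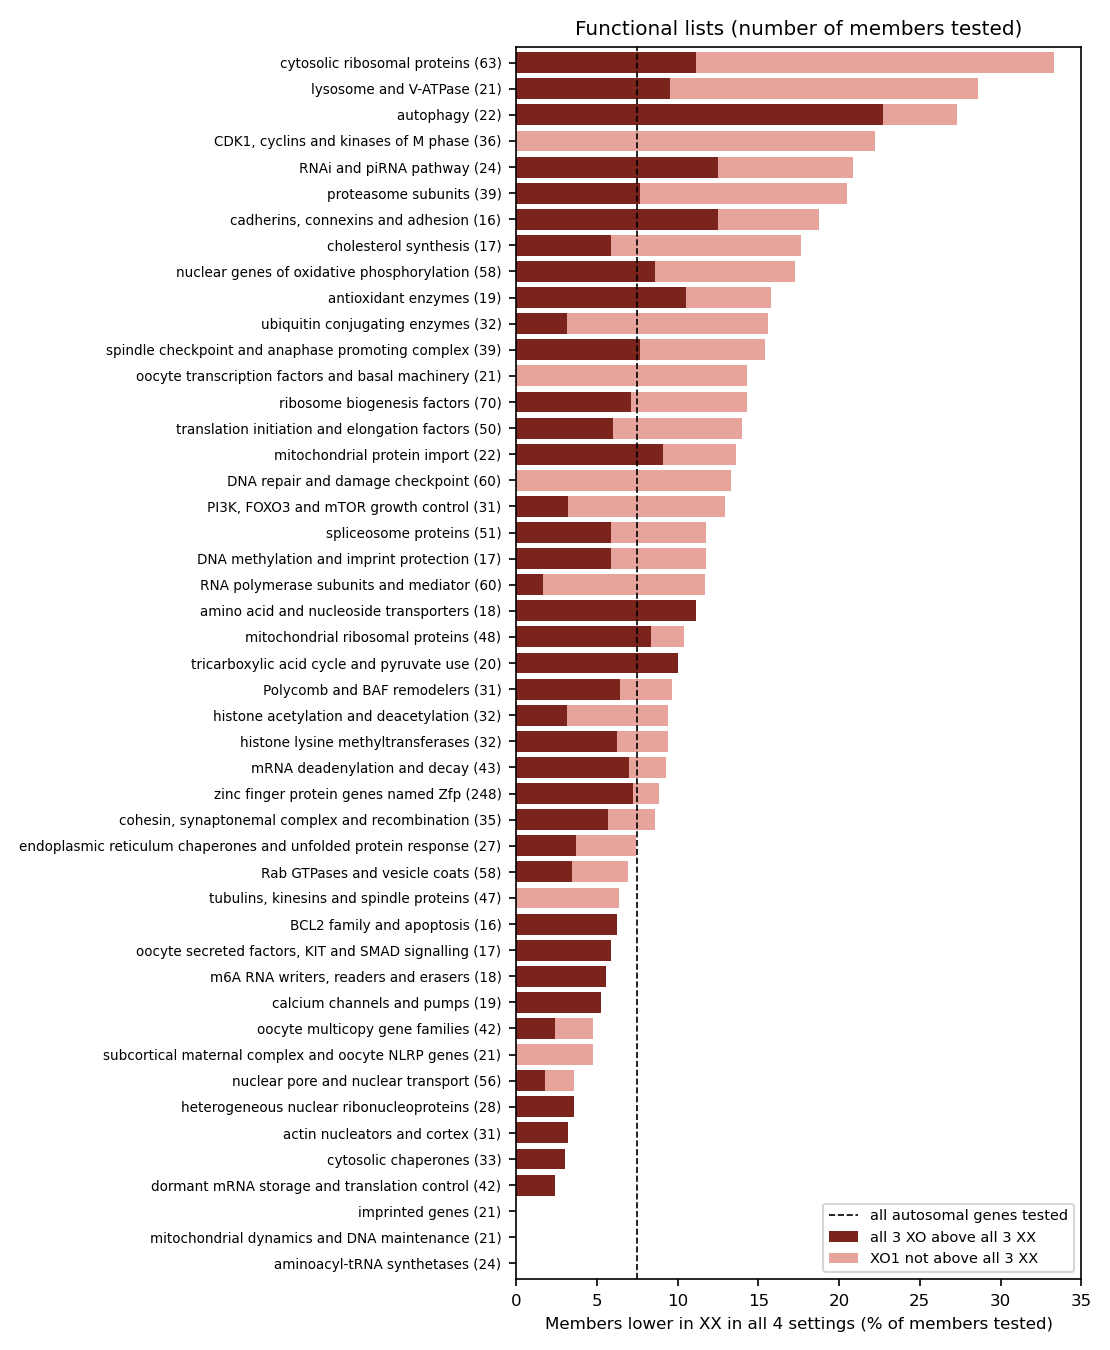
Share of the tested members of each functional list with at least 15 tested members that was lower in XX in all 4 settings, split into members with all 3 XO above all 3 XX samples (dark) and members with XO1 not above all XX samples (light). The dashed line is the share among all autosomal genes tested, 7.47%, and the numbers in parentheses are members tested.

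Of 63 tested genes of cytosolic ribosomal proteins, 21 were lower in XX in all 4 settings (33.3%) and none higher, and the median log2 fold change of the list was -1.51 with spike-in and -1.04 with gene-based factors, against -0.47 and -0.13 over all genes. XO1 was above all XX samples in 7 of the 21. Rpl41, of the large subunit, had 11.4, 9.80 and 29.9 normalized CPM in XX and 5.70, 329 and 668 in XO (-4.29 ± 1.40), and Rpl19 had 5.34, 4.55 and 11 in XX and 1.55, 121 and 310 in XO (-4.36 ± 1.34). In both, XO1 was below the XX samples. As a share of all UMIs the whole list did not separate the genotypes, with 1.45, 1.42 and 1.27% in XX and 0.844, 1.29 and 1.45% in XO. Ribosomal protein genes have many processed copies in the genome, with which reads can be shared. Ribosome biogenesis factors were lower in XX for 10 of 70 members, among them Nifk (-1.60 ± 0.49, XO1 above XX) and the helicase Ddx47 (-3.41 ± 1.31, XO1 below XX), and translation factors for 7 of 50, among them the elongation factor subunit Eef1d (-3.59 ± 1.34) and the initiation factor subunit Eif2b1 (-3.08 ± 0.94). None of 24 aminoacyl-tRNA synthetases passed in all 4 settings. Lars2, of the mitochondria, had 162, 486 and 213 in XX and 1240, 735 and 841 in XO (-1.71 ± 0.48), without overlap.

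Energy metabolism was spread over several lists. Nuclear genes of oxidative phosphorylation were lower in XX for 10 of 58 members (17.2%), with Atp5g1, a subunit of ATP synthase (-3.35 ± 1.11), beside Cox7c and Sdhd. Mitochondrial ribosomal proteins gave 5 of 48, and XO1 was above all XX samples in 4 of the 5, among them Mrps36, at 26.7, 26.3 and 32.6 normalized CPM in XX and 43.5, 111 and 197 in XO (-2.04 ± 0.49). Mitochondrial import gave 3 of 22, with Timm9 (-1.57 ± 0.49) and the chaperonin Hspe1 (-1.23 ± 0.34). None of 21 genes of mitochondrial dynamics and DNA maintenance passed. Glycolysis gave 3 of 8, with XO1 above all XX in none of them. Gapdh had 2.49, 2.80 and 6.70 in XX and 1.55, 34.6 and 167 in XO (-4.05 ± 1.31). Fatty acid oxidation gave 4 of 13, among them Hadhb (-1.69 ± 0.54), the tricarboxylic acid cycle 2 of 20, both with XO1 above XX and among them Dlat of the pyruvate dehydrogenase complex (-1.85 ± 0.50), cholesterol synthesis 3 of 17, among them squalene synthase Fdft1 (-3.67 ± 1.20) and Hsd17b7 (-1.11 ± 0.32), and antioxidant enzymes 3 of 19. Gstp1, a glutathione transferase, showed the largest change of all, with 1.07, 0.70 and 1.22 in XX, 0 in XO1, 52.2 in XO2 and 135 in XO3 (-5.89 ± 1.51).

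Proteasome subunits were lower in XX for 8 of 39 members (20.5%), with XO1 above XX in 3, and among the other members Psmb6 had 1.42, 2.10 and 3.66 normalized CPM in XX and 1.04, 27.9 and 96.5 in XO (-4.08 ± 1.17), while Psmc5 had -3.16 ± 1.12 (0.20 in limma on the batch-regressed values). The ubiquitin gene Ubb, at 144, 149 and 273 in XX and 58.0, 3150 and 7010 in XO (-4.17 ± 1.27), was in a list of ubiquitin genes and conjugating enzymes of which 5 of 32 were lower. Of the autophagy genes 6 of 22 were lower in XX, and XO1 was above all XX samples in 5 of the 6. Atg5, which takes part in the lipidation of LC3, had 54.9, 36.8 and 50.3 in XX and 81.3, 95.6 and 140 in XO (-1.16 ± 0.33), and Pik3r4 (-1.19 ± 0.35) and Atg16l1 (-1.11 ± 0.35) likewise had no overlap. Lysosome and V-ATPase genes gave 6 of 21, among them Atp6v1e1 (-2.86 ± 0.89, XO1 within XX). Of 33 cytosolic chaperones 1 passed, Ppia, and of 27 genes of the endoplasmic reticulum 2 did. Atf4, the transcription factor of the integrated stress response, had 17.5, 13 and 15.5 in XX and 40.4, 39.8 and 48.0 in XO (-1.48 ± 0.29). The 3 XO samples lay together here, in contrast to most genes lower in XX, and the XY samples had 21.4, 13.3 and 20.8. The sole immediate early or stress gene tested did not pass.

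Genes of oocyte identity were divided. Zona pellucida and fertilization genes were lower in XX for 2 of 10, Zp1 and the protease gene Astl. Zp1 had 49.2, 48.0 and 112 normalized CPM in XX and 14, 759 and 2170 in XO (-3.81 ± 1.31), while Zp2, its partner in the zona, had 16300, 15900 and 17100 in XX and 4920, 14800 and 16200 in XO and did not pass the test (0.46). In limma on the batch-regressed values the sign turned for Zp1 and for Astl (0.30 each). Of 21 genes of the subcortical maternal complex and oocyte NLRP family, 1 passed, Ooep, at 588, 535 and 774 in XX and 566, 3070 and 5110 in XO (-2.21 ± 0.72). Oocyte transcription factors gave 3 of 21, with XO1 above XX in none, among them Nobox, a homeobox factor required for follicle growth, at 62.0, 67.2 and 109 in XX and 56.4, 522 and 1140 in XO (-2.85 ± 0.90), and the basal factor gene Gtf2b (-3.47 ± 1.02). Gdf9, the main growth factor that oocytes send to granulosa cells, had 252, 272 and 319 in XX and 339, 869 and 2430 in XO (-2.11 ± 0.62), without overlap, and 234, 264 and 350 in XY. Of the 17 tested genes in its list of secreted factors, KIT and SMAD signalling, Gdf9 was the 1 lower in all 4 settings and Kitl the 1 higher. Of 31 genes of PI3K, FOXO3 and mTOR growth control 4 were lower, Rps6 (-2.90 ± 0.88), Mtor (-2.24 ± 0.78) and Rragc (-2.13 ± 0.57) among them, the last without overlap. Oocyte multicopy families gave 2 of 42, Tcl1 (-3.54 ± 1.24, 0.25 in limma on the batch-regressed values) and Oas1f, a family whose copies can share reads.

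In meiosis and cell division, the M phase kinases and cyclins were lower in XX for 8 of 36 members (22.2%), but XO1 was above all XX samples in none of the 8. Aurka, a spindle kinase, had 17.1, 18.9 and 34.4 normalized CPM in XX and 14.5, 158 and 347 in XO (-2.88 ± 0.89), and Cdk7, of the CDK-activating kinase, had -3.21 ± 1.04. DNA repair genes gave 8 of 60, again with XO1 above XX in none, among them the mismatch repair gene Pms2 (-2.00 ± 0.62). Spindle checkpoint genes gave 6 of 39, with XO1 above XX in 3. Mad2l1, which encodes the checkpoint protein MAD2, had 70.2, 61.6 and 80.4 in XX and 137, 250 and 413 in XO (-1.91 ± 0.42), and Ndc80, of the outer kinetochore, had 29.9, 23.1 and 34.7 in XX and 55.4, 93.6 and 107 in XO (-1.54 ± 0.32). Of 35 genes of cohesin and recombination 3 were lower, the cohesin acetyltransferase Esco2, at 143, 133 and 150 in XX and 280, 253 and 403 in XO (-1.14 ± 0.29), Hormad2 (-1.65 ± 0.49) and Pds5b (-1.80 ± 0.64). Tubulins and spindle proteins gave 3 of 47, none with XO1 above XX, Tuba1c (-4.04 ± 1.17) and Tuba1b (-3.87 ± 1.18) among them, which share much of their sequence. Of 16 genes of the BCL2 family and apoptosis and 31 of the actin cortex, 1 each was lower. None of 13 genes of the cAMP pathway of meiotic arrest passed, and Rgs2, the most abundant of them, had 613, 576 and 584 in XX and 834, 836 and 954 in XO (-0.57 ± 0.29).

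Chromatin and transcription lists lay nearer to the background. Histone methyltransferases were lower in XX for 3 of 32 members, with Setd3 (-1.51 ± 0.53) and Dpy30 of the H3K4 methyltransferase complexes (-1.50 ± 0.49), acetylation genes for 3 of 32, with Brd8 (-1.07 ± 0.36), and Polycomb and BAF genes for 3 of 31, with Dpf3 (-1.78 ± 0.43). None of 11 histone demethylases passed, and Kdm1b, required for maternal imprints, had 152, 140 and 148 normalized CPM in XX and 266, 186 and 207 in XO (-0.58 ± 0.28). DNA methylation genes gave 2 of 17, among them Tet1, which oxidises methylcytosine, at 6.06, 3.85 and 7.62 in XX and 11.9, 27.9 and 41.2 in XO (-2.19 ± 0.48). Of 21 imprinted genes none passed. The oocyte linker histone gene H1foo was the 1 of 8 histone genes that did (-3.35 ± 1.29), with XO1 at 15.5 below the XX samples and XO2 and XO3 at 856 and 2580. Its sign turned in limma on the batch-regressed values (0.88), and with the spike-in composition as covariate and gene-based factors it was not called. Polymerase and mediator subunits gave 7 of 60, Med8 among them (-2.86 ± 0.95).

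RNA processing gave counts of the same order, with 6 of 51 spliceosome genes lower in XX (Snrnp27, -1.99 ± 0.47, and Sf3a3, -1.71 ± 0.61), 1 of 28 hnRNP genes (Hnrnpf, -1.30 ± 0.41), 1 of 42 genes of mRNA storage (Rbpms2, -1.52 ± 0.44) and 4 of 43 of mRNA decay. Btg4, the adaptor that brings the CCR4-NOT deadenylase to maternal mRNAs, had 179, 176 and 124 normalized CPM in XX and 268, 270 and 492 in XO (-1.11 ± 0.34), and Exosc9 of the exosome -1.26 ± 0.39. The RNAi and piRNA list gave 5 of 24 (20.8%), 3 of them with XO1 above XX. Asz1, which piRNA production requires, had 51.6, 32.2 and 42.0 in XX and 82.3, 83.8 and 118 in XO (-1.17 ± 0.30), Henmt1, the piRNA methyltransferase, -1.51 ± 0.40, and Tdrd12 -1.70 ± 0.52. The 2 readers of m6A that passed went in opposite directions. Ythdf1 was higher in XX, with 79.1, 51.8 and 53.0 in XX and 36.8, 35.7 and 42.9 in XO (0.67 ± 0.27), and Ythdc2 was lower, with 176, 143 and 227 in XX and 237, 717 and 1100 in XO (-1.91 ± 0.54). Neither overlapped between the genotypes.

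Among membrane and transport genes, adhesion genes also went both ways. Of 16 tested, Itgb1 was higher in XX and 3 were lower, Ctnnb1, which encodes β-catenin, at 43.5, 35.7 and 32.6 normalized CPM in XX and 77.1, 65.7 and 80.7 in XO (-1 ± 0.25), Itga6 (-1.26 ± 0.38), the integrin partner of Itgb1, and Cdh2 (-2.70 ± 0.75). The 3 XO samples of Ctnnb1 lay together. Of 19 calcium genes Orai2 was higher and Calm2, of calmodulin, was lower (-1.54 ± 0.45), and of 18 transporter genes 2 were lower, among them Slc7a11, the cystine transporter, at 104, 94.9 and 112 in XX and 152, 192 and 250 in XO (-0.93 ± 0.28). Nuclear transport gave 2 of 56, the oocyte importin Kpna7 (-1.18 ± 0.32) and Sec13 (-3.49 ± 1.18), and Rab GTPases and vesicle coats 4 of 58, Arf1 among them (-2.00 ± 0.57).

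Markers of theca, stroma and endothelium summed to 64, 39 and 71 normalized CPM in XX and to 41, 140 and 165 in XO. Of 19 markers 4 were tested and none passed in all 4 settings, and Cyp17a1, Col1a1 and Dcn were at most 1.07 in each sample. Pecam1, which oocytes also express, had 31.0, 18.6 and 48.4 in XX and 14.5, 109 and 132 in XO (-1.38 ± 0.71).

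A list of autosomal genes that the study discusses, which does not hold every gene it names, had 9 tested members. Gdf9, Ppia, at 45.6, 38.2 and 28 normalized CPM in XX and 69.9, 57.4 and 163 in XO (-1.37 ± 0.41), and the H3K9 methyltransferase gene Ehmt1 (-1.13 ± 0.36) were lower in XX in all 4 settings. Setd2, the H3K36 methyltransferase gene, at 49.2, 39.6 and 52.7 in XX and 64.2, 86.9 and 103 in XO (-0.85 ± 0.29), and Tubb5 (-0.96 ± 0.38) were lower in the other settings but did not pass with gene-based factors and all samples. The H3K4 demethylase gene Kdm5b (0.03 ± 0.40) and Kcnj13 (-0.18 ± 0.49) did not pass in any of the 4 settings. Kdm5a, also an H3K4 demethylase gene (0.08 ± 0.35), and Larp6 (0.05 ± 0.66) passed only with gene-based factors without XO1. There they were higher in XX, at 0.92 and 1.41.

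By chromosome, the share lower in XX in all 4 settings ran from 4.61% on chromosome 14 to 9.95% on chromosome 17, and the share higher from 0% on chromosome 16 to 1.36% on chromosome 19. Of 826 windows of 2 Mb with at least 5 genes tested, 416 held no such lower gene. The most genes with no overlap lay at 146 to 148 Mb of chromosome 4, a region named here after its values were seen, where 11 of 32 genes tested were lower in XX in all 4 settings (34.4%), 10 of them with all XO above all XX samples. The region holds a cluster of zinc finger genes, whose KRAB-type products are known as repressors of transposable elements. XO1 did not lie with the XX samples here. It was above all 3 XX samples in 30 of the 32 genes. Over all chromosomes, this held in 371 of the 790 lower genes, 0 of the 63 higher genes and 4128 of the 9723 other genes. In 12 of the 15 Zfp genes XO1 was the highest of the 6 samples, for which the share over all genes was not counted. Zfp979 had 425, 433 and 416 normalized CPM in XX, 811, 1120 and 1590 in XO and 800, 708 and 973 in XY. Rex2 had 256, 275 and 239 in XX, 471, 636 and 816 in XO and 435, 372 and 505 in XY. Zfp985 had 4.99, 2.10 and 5.48 in XX, 111 in XO1, 6.20 and 9.60 in XO2 and XO3, and Zfp984 had 29.6, 35.0 and 21.6 in XX and 158, 38.8 and 55.9 in XO. Zfp985 and Zfp984 were lower with all samples and spike-in factors, but neither passed without XO1 under either kind of factor. These genes are close copies of each other and several overlap, so that reads could be shared among them and their number is not a number of independent changes. Zfp981, by the rule on lists the first of the Zfp genes, had 13.2, 4.55 and 7.62 in XX and 53.8, 25.3 and 51.4 in XO (-2.36 ± 0.52). Over all chromosomes 22 of 248 Zfp genes were lower in XX, 18 of them with XO1 above all XX samples, and 2 were higher.

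**Figure D5:**
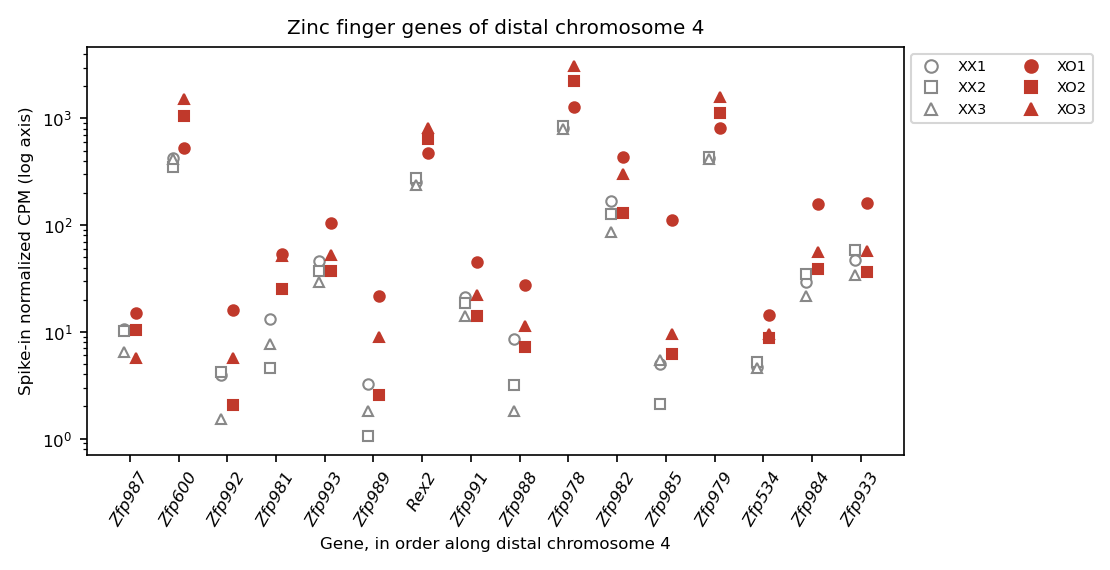
Spike-in normalized CPM (log axis) of the Zfp genes and Rex2 at 146 to 148 Mb of chromosome 4, in their order along the chromosome, with open grey symbols for XX1 to XX3 and filled red symbols for XO1 to XO3. The most abundant of them, Zfp600, Rex2, Zfp978 and Zfp979, have all XO above all XX samples with XO1 the lowest of the XO samples, whereas in 12 of the 15 Zfp genes XO1 is the highest of the 6 samples.

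The genes lower in XX also differed in transcript properties according to XO1. Those with XO1 above all XX samples had a median length of the longest annotated transcript of 3157 bases and a median GC content of 46.7%, close to the 3129 bases and 47.2% of all genes tested, whereas those with XO1 not above all XX samples had 2439 bases and 50.6%. The genes higher in XX had 2044 bases and 46.3%. These are descriptions over genes, and lengths and GC content were found for at least 96.8% of each set.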

How the data were processed

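Mouse oocytes were measured by Smart-seq3, with 3 XX, 3 XO and 3 XY samples as labelled. The XO sample whose column carries no number is XO1. The authors aligned reads with HISAT2 to GRCm38 and deposited the number of UMIs at 5′ exons per gene as counts, 28052 genes and 79 ERCC spike-ins. Their normalized CPM is a deposited signal, in which counts are scaled by the sum over genes and by a TMM factor computed on the spike-ins, as a check showed to within 4.91e-11. Since that factor is relative to the spike-in total, it follows the composition of the spike-ins and not their amount. The authors also deposited log2 values with batch effects regressed out, which were used as an alternative.

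Counts were tested with edgeR 4.0.16 (R 4.3.3, quasi-likelihood F test, filterByExpr by genotype), a single model of the 9 samples with genotype as factor, contrast XX minus XO, two-sided, called at an unadjusted p of 0.05 as in the study, with Benjamini-Hochberg adjustment over all 10993 genes tested. A fold change is positive when XX is higher. SE is the log2 fold change divided by the root of F. The fit was tested on simulated data. Alternatives used DESeq2 1.42.0, limma 3.58.1, sva 3.50.0 (1 surrogate variable), and the first component of the log2 shares of 17 spike-ins with a mean of at least 50 UMIs as covariate, the last added after the data were seen.

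Named were the 15 largest changes in each direction among genes called in all 4 settings that averaged 10 normalized CPM or more, with no overlap under both scalings and no model name, up to 4 such genes (overlap allowed) or otherwise the most abundant genes of each list, and the genes the study names. Some genes that the rule names are not reported here. The members and lists were chosen with earlier results of these data known. Features came from Gencode vM21 (GRCm38).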

Additional observations from a re-analysis of the deposited data

How the results depend on the processing

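Main values are 87 genes higher and 1810 lower in XX and a median log2 fold change of -0.47 over all autosomal genes. Other scalings gave 361, 857 and -0.13 (TMM on genes), 396, 805 and -0.11 (TMM on autosomal genes), 320, 939 and -0.17 (DESeq2 size factors), 824, 417 and 0.09 (gene totals alone) and 182, 51 and 0.41 (spike-in totals). Gene-based TMM without XO1 gave 1341 higher genes and a median of 0.00. A fit of the 6 samples alone gave 53 higher, no filter on low counts 3703 lower, a surrogate variable 532 and 3438, and limma on the batch-regressed log2 values 3730, 816 and 0.27. Of the alternatives chosen after seeing the data, the spike-in composition as covariate gave 510 and 3412 with spike-in factors and 1480 higher and a median of -0.03 with TMM, and leaving out XO2 and XO3 together gave 1335, 1123 and 0.12. Leaving out 1 sample gave 50 to 246 higher and 680 to 3651 lower, with medians from -0.54 to -0.39.

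Of the genes called in all 4 settings, 63 higher and 790 lower, none passed an adjusted p in each edgeR fit, 0 in either direction, since the fits with all samples had none; the unadjusted counts are the 63 and 790 themselves, and DESeq2 gave 54 and 877. No filter gave 1845 lower, the 6 samples alone 520 lower, and the covariate 123 higher, of which 27 were shared. Leaving out 1 sample gave 21 to 121 higher and 221 to 759 lower.

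Deviations of XX and XO samples of the same replicate number correlated at 0.45, -0.427 and 0.665 for numbers 1 to 3. On the main axis of the genes, XX, XO and XY lay at -25.4, -95.3 and -66.5 for number 1. They lay at -29.2, 71.6 and -5.1 for number 2, and at 23.7, 90.8 and 35.5 for number 3. Whether the number marked a batch was not tested. With the number as a block, 119 were higher and 2292 lower with spike-in factors, 568 and 1213 with TMM (median -0.04), and 71 and 1155 in all 4 settings.

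The sign turned in limma on the batch-regressed values for Farsb (0.59), Psmc5 (0.20), Zp1 (0.30), Astl (0.30), Tcl1 (0.25), H1foo (0.88), Zfp207 (0.01) and Pecam1 (0.51), and with spike-in totals for Setd2 (0.07). Over the named genes, 2168 values kept direction and side of the threshold, 292 no longer passed and 28 newly passed. These numbers leave out the fit with XO1 as the sole XO sample. In that fit the sign was kept in 56 of the 92 named genes called lower and in 17 of the 17 called higher. XO1 had been part of those calls, and the share over all genes was not counted. The cause was not tested.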
